A study of Mus musculus with 8 samples.

Results

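The Cyp2a and Cyp2b genes were followed in livers of female mice given dihydrotestosterone (DHT), an androgen that is not converted to estrogen. A gene was a member if its Ensembl identifier in the deposited table maps to Cyp2a4, Cyp2a5, Cyp2a12, Cyp2a22, Cyp2b9, Cyp2b10 or Cyp2b13. These are 7 of the 14317 mouse genes of the table, 4 of them Cyp2a and 3 Cyp2b genes, and all 7 passed the filter on low values (a mean of at least 10) along with 14312 genes in total. This rule uses gene identifiers and no measured value, but the members were chosen with earlier results of these data known.

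All mice were females labelled WT and were 7 weeks old at implantation, and all received a western diet (WD) rich in fat, fructose and cholesterol for 8.5 weeks. The Con-Veh group (n = 4) carried an empty silastic pellet and the Con-DHT group (n = 4) a DHT pellet of 10 mm, and the pellets were exchanged during the study. The mice were fasted overnight before the livers were taken, and each library came from the liver of 1 mouse. A whole liver holds several cell types, so fewer cells of a type and less RNA per cell cannot be told apart in these values.

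Cytochrome P450 enzymes of the Cyp2 family are heme proteins of the endoplasmic reticulum that add oxygen to drugs, plant compounds, steroids and bile acids, with electrons from the reductase Por. Of the members, Cyp2b10 and Cyp2a5 are known targets of the constitutive androstane receptor CAR (Nr1i3). CAR dimerizes with the retinoid X receptor and overlaps in its targets with the pregnane X receptor PXR (Nr1i2). In mice several members, among them Cyp2a4, Cyp2b9 and Cyp2b13, are more active in female than in male liver, a difference set by the temporal pattern of growth hormone secretion.

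The members lie in 1 cluster on chromosome 7 that spans 1140 kb of GRCm38, from 25897620 to 27037375. The authors aligned to GRCm39, so positions here serve to place the genes and do not match theirs. In order along the chromosome they are Cyp2b10 (25897620 to 25926624), Cyp2b13 (26061497 to 26096197), Cyp2b9 (26173411 to 26210661), Cyp2a4 (26307169 to 26315088), Cyp2a5 (26835305 to 26843548), Cyp2a22 (26931631 to 26939384) and Cyp2a12 (27029081 to 27037375). Cyp2a22 is on the minus strand and the other 6 are on the plus strand.

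The bases just upstream of the start sites are shown because neighbouring copies in the cluster are close to identical there, while their transcripts differed in response, as given further on. They are RefSeq windows on GRCm38.p6, found for all 7 members, ended before the first transcript base that RefSeq or GENCODE gives and trimmed to the stretch that both copies cover. Capitals mark the bases that differ from, or have no partner in, the copy named with them. The first pair is Cyp2a4 (chr7:26306943-26307158, plus strand) against Cyp2a5 (chr7:26835089-26835304, plus strand), which share 212 of 216 bases (98.1%).
Cyp2a4: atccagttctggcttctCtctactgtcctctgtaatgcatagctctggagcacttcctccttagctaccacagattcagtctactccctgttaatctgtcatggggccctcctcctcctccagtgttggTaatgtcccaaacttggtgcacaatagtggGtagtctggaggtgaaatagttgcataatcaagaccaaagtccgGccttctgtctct
Cyp2a5: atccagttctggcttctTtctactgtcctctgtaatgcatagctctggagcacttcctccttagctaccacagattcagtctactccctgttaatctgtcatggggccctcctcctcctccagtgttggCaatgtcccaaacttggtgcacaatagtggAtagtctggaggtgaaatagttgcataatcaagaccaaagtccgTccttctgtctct
Read from Cyp2a4 to Cyp2a5, and counted from 1 at the 5′ end of these windows, the differences are C18T, T130C, G160A and G204T.

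Cyp2b13 (chr7:26061245-26061494, plus strand) and Cyp2b9 (chr7:26173159-26173408, plus strand) share 248 of 250 bases (99.2%), and the differences from Cyp2b13 to Cyp2b9 are C48T and T104C. The third Cyp2b gene, Cyp2b10 (chr7:25897413-25897619, plus strand), is shown against Cyp2b9, with which it shares 153 of 216 aligned positions (70.8%). Capitals in Cyp2b13 and Cyp2b9 mark the differences between these copies.
Cyp2b13: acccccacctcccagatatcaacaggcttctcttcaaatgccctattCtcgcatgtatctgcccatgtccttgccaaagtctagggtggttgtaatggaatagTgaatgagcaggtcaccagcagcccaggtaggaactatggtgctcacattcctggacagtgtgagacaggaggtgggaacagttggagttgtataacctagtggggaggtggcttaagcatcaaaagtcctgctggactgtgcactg
Cyp2b9: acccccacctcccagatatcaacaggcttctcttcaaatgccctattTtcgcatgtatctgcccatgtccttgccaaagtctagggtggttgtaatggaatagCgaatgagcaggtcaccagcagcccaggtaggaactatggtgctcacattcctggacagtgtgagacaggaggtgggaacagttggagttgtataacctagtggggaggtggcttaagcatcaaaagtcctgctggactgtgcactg
Cyp2b10: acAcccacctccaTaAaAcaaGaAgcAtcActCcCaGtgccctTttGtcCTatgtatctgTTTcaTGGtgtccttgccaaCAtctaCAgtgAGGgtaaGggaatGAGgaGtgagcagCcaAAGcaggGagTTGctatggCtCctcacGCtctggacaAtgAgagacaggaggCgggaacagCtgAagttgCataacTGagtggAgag
Cyp2b10 is thus the distant copy of the 3.

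Cyp2a12 (chr7:27028840-27029078, plus strand) and Cyp2a22 (chr7:26939387-26939628, minus strand) share 215 of 242 aligned positions (88.8%), with a run of differences at the 5′ end.
Cyp2a12: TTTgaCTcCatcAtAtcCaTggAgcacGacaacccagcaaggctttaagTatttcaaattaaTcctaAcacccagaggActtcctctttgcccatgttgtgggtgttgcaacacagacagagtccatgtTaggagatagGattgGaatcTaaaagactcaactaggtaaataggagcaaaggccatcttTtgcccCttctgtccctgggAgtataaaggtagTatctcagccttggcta
Cyp2a22: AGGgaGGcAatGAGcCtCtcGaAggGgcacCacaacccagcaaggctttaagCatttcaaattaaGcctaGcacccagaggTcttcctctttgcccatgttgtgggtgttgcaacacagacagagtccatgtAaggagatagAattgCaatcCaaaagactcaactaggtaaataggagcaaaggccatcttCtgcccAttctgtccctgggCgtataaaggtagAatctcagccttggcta
By contrast Cyp2a4 and Cyp2a22 share 52.3% of their aligned positions, so the Cyp2a genes form 2 pairs.

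Motif letters were searched on both strands in the 250 bases before each RefSeq start, as a description. The HNF4A core CAAAGTC occurred in 4 members (Cyp2a4, Cyp2a5, Cyp2b9 and Cyp2b13) and in 3.84% of all 32851 windows. The nuclear receptor half-site AGGTCA occurred in Cyp2b9 and Cyp2b13, at the same distance of 138 bases before the start, and in 14.0% of all windows. The TATA box core TATAAA occurred in the 4 Cyp2a genes and in 12.4% of all windows, and parts of these windows lie past the start that GENCODE gives. None of the 7 windows held the STAT5 site (TTCNNNGAA), the core of HNF6 and CUX2 (ATCGAT) or the FOXA core (TGTTTAC). The androgen receptor half-site (AGAACA) was absent from all 7 as well. In this order their shares of all windows were 7.02%, 0.728%, 3.17% and 16.1%, so absence from 7 windows says little. Each motif was thus in both copies of a close pair or in neither.

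The same pairs were the closest in coding sequence. Cyp2a4 and Cyp2a5 are identical at 98.5% of 1485 aligned coding bases, Cyp2a12 and Cyp2a22 at 97.0% of 1479 and Cyp2b9 and Cyp2b13 at 92.7% of 1476, whereas Cyp2b10 matches Cyp2b13 at 87.1%. The authors counted reads that map to a single place. A read wholly within a shared stretch could be lost from both copies, unless its mate lies outside the stretch. Of the 150-base windows of their transcripts, 4.22% of those of Cyp2a4, 5.79% of Cyp2a5, 3.72% of Cyp2a12 and 3.46% of Cyp2a22 occur unchanged in another gene, which in each case includes the close copy. For Cyp2b13 the share is 5.04%, with the gene model Gm45225 as the match, and for Cyp2b9 and Cyp2b10 no window was shared. These shares count exact matches only and do not bound how many reads were placed in the wrong copy. In Con-DHT, Cyp2a4 had 14 to 94 reads and Cyp2a5 1478 to 19553, so a small share of misplaced reads would matter there.

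In the 8 libraries 13123962 to 17815944 reads fell on mouse genes, and the deposited values are these reads divided by a size factor per library. They are called normalised read counts here, and 3 reads are worth 2.61 to 3.30. The members together took 0.167% to 0.348% of the reads of the Con-Veh libraries and 0.0613% to 0.216% of those of the Con-DHT libraries. Groups were compared on log2(count + 1) with limma over all 14312 genes at an adjusted p of at most 0.05 (Benjamini-Hochberg). Fold changes are given with their standard error (SE), always as Con-DHT minus Con-Veh. The added 1 makes changes of low counts smaller. They are also differences of mean logs, not logs of a ratio of means, and low single livers weigh heavily in them. Each member had a larger negative estimate here than by edgeR or DESeq2, as Cyp2b13 with -7.07 against -6.64 and -6.66. By this test 7.21% of all genes differed in either direction and 2.61% were lower in Con-DHT. The share of higher calls was 63.8%, but 83.9% when the libraries were given equal totals with the Mup genes set aside and 88.2% with scaling by the spike-ins. With spike-in scaling nearly all members had the same SE, so its p-values and calls, here and below, are not comparable with the others.

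Of the 7 members, 4 were lower in Con-DHT livers and none was higher, set against the 2.61% of all genes that were lower. The 4 are Cyp2b13, Cyp2a4, Cyp2b9 and Cyp2a22, and in each of them all Con-DHT libraries lay below all Con-Veh libraries, which held for 6.62% of all genes. Cyp2b10, Cyp2a5 and Cyp2a12 had lower means in Con-DHT but did not pass the test. The members had a median log2 change of -2.88, beside -0.0081 over all genes tested. By edgeR's quasi-likelihood test 3 members were lower, beside 2.46% of all genes, and by DESeq2 4 were, beside 4.51%.

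**Figure D1:**
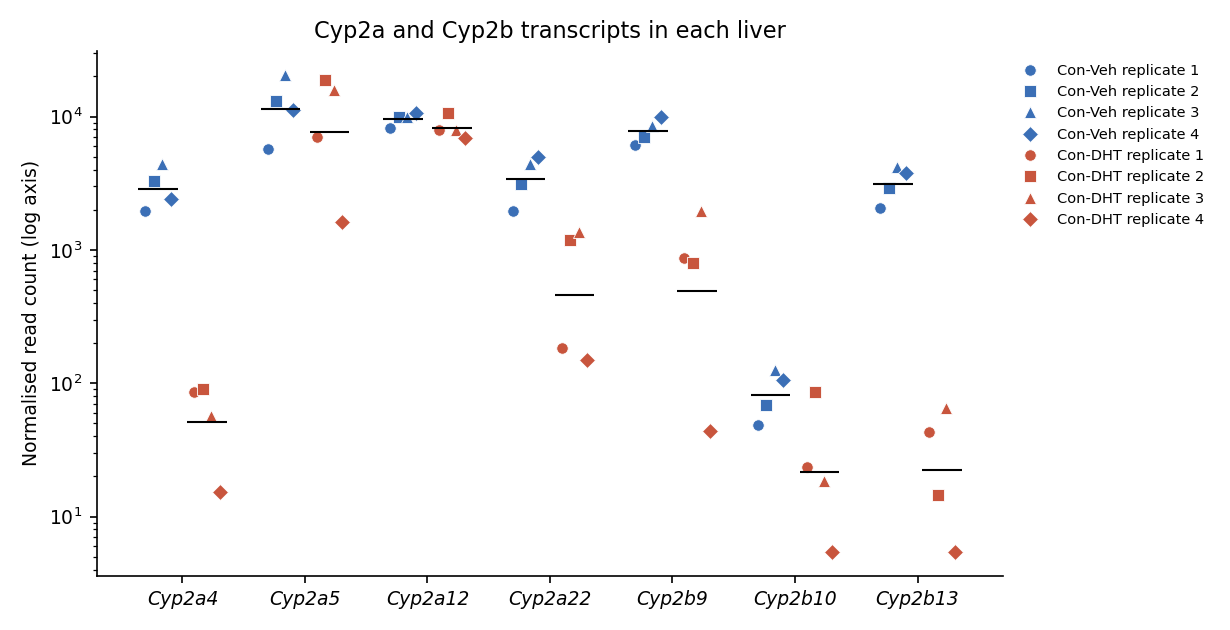
Normalised read count (log axis) of each member in each of the 8 livers. Blue points are Con-Veh and red points Con-DHT, symbols mark the replicate number and black lines the mean on the log scale. The red points of Cyp2a4 and Cyp2b13 sit at 91.0 or less, far below the blue ones, while those of Cyp2a5 and Cyp2a12 overlap with them.

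Cyp2b13 had the lowest values under DHT relative to its controls. Its count was 2074, 2906, 4193 and 3789 in the Con-Veh livers (replicates 1 to 4) and 43.2, 14.5, 65.3 and 5.44 in the Con-DHT livers. The groups lay far apart, with the highest Con-DHT liver far below the lowest control. The mean fell from 3240.4 ± 945 to 32.1 ± 27.4 (SD over 4 livers each), to 0.991% of the control level. On the log2 scale the change was -7.07 (SE 0.61) at an adjusted p of 0.00025 in limma. Each of the 21 alternative fits kept the call, with adjusted p of at most 0.0018.

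Cyp2b9 was the more abundant of this pair of close copies. Its counts were 6149, 7073, 8484 and 9970.5 in Con-Veh and 862, 798, 1941 and 43.5 in Con-DHT. Con-DHT replicate 4 stood lowest, and even the highest Con-DHT liver, replicate 3, remained below all controls. The mean fell from 7919 ± 1671 to 911 ± 781 (SD over 4 livers each), and the log2 change was -3.98 (SE 0.92) at an adjusted p of 0.030 in limma. The call depended on single libraries: it was lost without any of the 4 Con-Veh livers (adjusted p = 0.054, 0.066, 0.063 and 0.078 without replicates 1 to 4), without Con-DHT replicate 1 (0.051) and without Con-DHT replicate 2 (0.054). Without the intensity trend it was 0.066, while edgeR gave 0.032 and DESeq2 0.0059. Without Con-DHT replicate 4 the log2 fold change was -2.82 (adjusted p = 0.0017).

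Cyp2b10, the Cyp2b gene best known for induction by CAR ligands such as phenobarbital, was scarce in both groups. It had 48.4, 68.5, 125 and 106 in Con-Veh and 23.5, 85.2, 18.4 and 5.44 in Con-DHT. The groups overlapped, because Con-DHT replicate 2 lay above both Con-Veh replicates 1 and 2. The log2 change was -1.86 (SE 0.65, unadjusted p = 0.016, adjusted p = 0.12 by limma), with a 95% interval from -3.31 to -0.42. Without Con-DHT replicate 2 it was -2.51 (adjusted p = 0.021) and without Con-DHT replicate 4 -1.26 (0.20), while edgeR gave -1.37 (0.20) and DESeq2 -1.39 (0.29).

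Cyp2a4, a hydroxylase of testosterone and other steroids, fell almost as far as Cyp2b13. The Con-Veh livers had 1949, 3305, 4424 and 2412 and the Con-DHT livers 85.4, 91.0, 57.2 and 15.2. All Con-DHT livers were thus far below the lowest control. The mean went from 3022 ± 1091 to 62.2 ± 34.6 (SD, n = 4), to 2.06% of the control level, and the log2 change was -5.78 (SE 0.49) at an adjusted p of 0.00024 in limma. This call was kept in each of the 21 alternative fits, with adjusted p of at most 0.0015.

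Cyp2a5, the coumarin hydroxylase, differs from Cyp2a4 at 23 coding bases and had the highest mean of the members in both groups, though Cyp2a12 had more reads in Con-Veh replicate 1 and in Con-DHT replicates 1 and 4. Its counts were 5726, 13038, 20645 and 11249.9 in Con-Veh and 6979, 18922, 15947 and 1607 in Con-DHT. The groups overlapped over most of their range, and Con-DHT replicate 4 stood below the rest. The mean was 12665 ± 6164 in Con-Veh and 10864 ± 7991 in Con-DHT (SD over 4 livers each). The log2 change of -0.59 (SE 0.69) had an adjusted p of 0.66 in limma and an interval from -2.13 to 0.95, which leaves room for either direction. Its sign turned without Con-DHT replicate 4 (0.16, adjusted p = 0.88).

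Cyp2a22 had 1952, 3098, 4381 and 4936 in Con-Veh and 182, 1193, 1351 and 150.01 in Con-DHT. The Con-DHT livers formed a pair with little transcript (replicates 1 and 4) and a pair with more (replicates 2 and 3), all below the controls. The mean fell from 3592 ± 1337 to 719 ± 642 (SD over 4 livers each), a log2 change of -2.88 (SE 0.69) at an adjusted p of 0.034 in limma. As for Cyp2b9, the call was lost when 1 library was left out in 5 of 8 cases: Con-Veh replicates 2, 3 and 4 (0.073, 0.075 and 0.091) and Con-DHT replicates 1 and 4 (0.083 and 0.068). It was also lost without the trend (0.074) and by edgeR (0.065), but not by DESeq2 (0.035).

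Cyp2a12, which can hydroxylate bile acids, was the steadiest member. Its counts were 8261, 9848, 9968 and 10602 in Con-Veh and 7898, 10659, 7912 and 6914 in Con-DHT. Con-DHT replicate 2 had the highest count of all 8 livers, so that the groups overlapped. The means were 9669.6 ± 995 and 8345 ± 1611 (SD over 4 livers each), and the log2 change of -0.23 (SE 0.13) had an adjusted p of 0.36 in limma and an interval from -0.52 to 0.07.

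**Figure D2:**
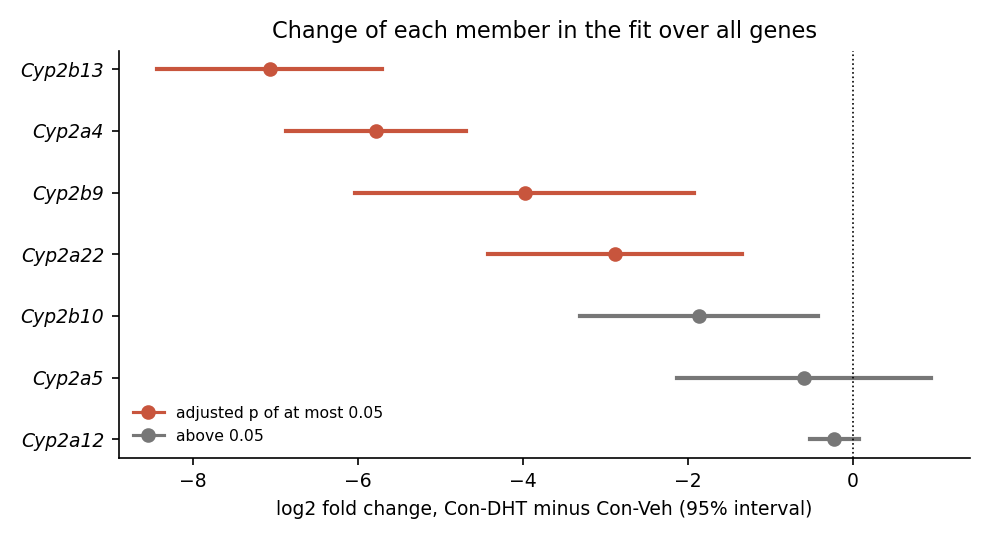
Log2 fold change of each member, Con-DHT minus Con-Veh, with its 95% interval from limma. Members with an adjusted p of at most 0.05 are red and the others grey, and the points run from -7.07 for Cyp2b13 to -0.23 for Cyp2a12.

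Set by exon length, the order of the mean levels differed between the groups. Per kb of exon sequence (GRCm38), the Con-Veh means were 6109 for Cyp2a5, 4221 for Cyp2b9, 2797 for Cyp2a12, 1739 for Cyp2a4, 1728 for Cyp2b13, 1043 for Cyp2a22 and 41.2 for Cyp2b10. The libraries of neighbours in this order overlapped, except that by this length all Cyp2b9 values lay above those of Cyp2a12. All Cyp2a22 values lay above those of Cyp2b10 too. This length joins the exons of all transcripts, 3457 bases for Cyp2a12 and 3445 for Cyp2a22. The transcripts searched above for shared windows have 1681 and 1796 bases. For Cyp2a4, Cyp2b9 and Cyp2b13 both lengths are equal. The places of Cyp2a12 and Cyp2a22, and the shift in order, thus depend on the length used. In Con-DHT the counts per kb were 5241 for Cyp2a5, 2414 for Cyp2a12, 486 for Cyp2b9, 209 for Cyp2a22, 35.8 for Cyp2a4, 17.1 for Cyp2b13 and 15.7 for Cyp2b10. In this order the libraries of Cyp2a12 lay above those of Cyp2b9 and those of other neighbours overlapped. Cyp2b13 was thus no longer apart from Cyp2b10, the scarcest member in Con-Veh.

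Ratios within a library showed that close copies moved by unequal amounts. In 5 pairs the log2 ratio of both counts (each plus 1) was compared between groups by an exact two-sided permutation test over 70 arrangements, whose smallest p is 0.029, with adjustment over the 5 pairs. Cyp2a4 over Cyp2a5 was -1.55, -1.98, -2.22 and -2.22 in Con-Veh and -6.34, -7.68, -8.10 and -6.63 in Con-DHT. The ratio was thus lower in all 4 Con-DHT livers, by -5.19 (exact permutation p = 0.029, adjusted p = 0.036). Cyp2a4 made up 20.2% ± 3.65 of the summed count of the pair in Con-Veh and 0.746% ± 0.397 in Con-DHT (SD, n = 4).

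Cyp2a12 over Cyp2a22 was 1.51 ± 0.46 in Con-Veh and 4.16 ± 1.53 in Con-DHT (SD, n = 4), a difference of 2.65 on the log2 scale with no overlap (exact permutation p = 0.029, adjusted p = 0.036). Cyp2b9 over Cyp2b13 was 1.57, 1.28, 1.02 and 1.40 in Con-Veh and 4.29, 5.69, 4.87 and 2.79 in Con-DHT, a difference of 3.09 (exact permutation p = 0.029, adjusted p = 0.036). Cyp2b13 thus fell further than Cyp2b9, whose upstream bases differ at 2 positions. Cyp2b10 over Cyp2b13 moved by 5.21 in the same direction, from -5.25 ± 0.17 to -0.04 ± 1.82 (SD, n = 4; exact permutation p = 0.029, adjusted p = 0.036). For Cyp2b9 over Cyp2b10 the difference of -2.11 did not pass (exact permutation p = 0.086, also after adjustment), since Con-DHT replicate 3 lay among the controls. Leaving out any library kept the sign of all 5 differences.

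**Figure D3:**
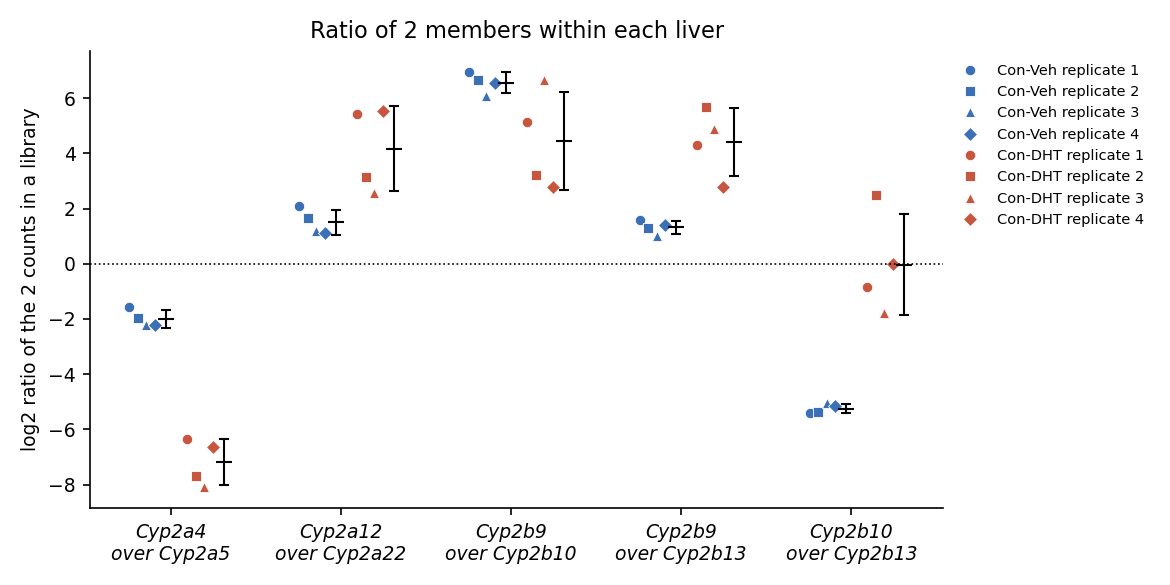
Log2 ratio of the counts of 2 members within each liver, with Con-Veh in blue and Con-DHT in red. Black bars give the mean and SD over 4 mice, and the groups are apart in 4 of the 5 pairs, with Cyp2b9 over Cyp2b10 as the exception.

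Summed over close copies, the picture depended on the abundant member. The 3 Cyp2b genes together had 8272, 10048, 12802 and 13865 in Con-Veh and 929, 898, 2025 and 54.4 in Con-DHT, with no overlap and a log2 difference of -4.32. Cyp2a4 and Cyp2a5 together averaged 15687 ± 7228 in the controls and 10926 ± 8014 under DHT (SD, n = 4), with overlap. The sum of all members ran from 26161 to 52220.4 in Con-Veh and from 8739.8 to 31763 in Con-DHT. Cyp2a5 and Cyp2a12 supplied most of what was left under DHT, on average 45.0% and 47.7% of it. These sums are values with no test.

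**Figure D4:**
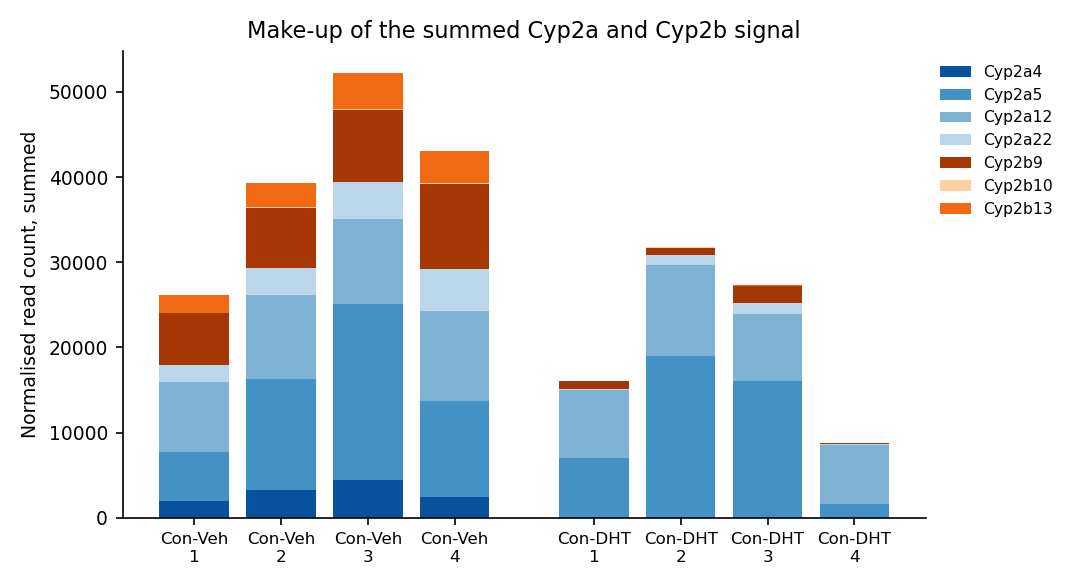
Normalised read counts of the 7 members stacked for each liver, with Cyp2a genes in blue and Cyp2b genes in orange to brown. The brown and orange parts shrink from at least 8272 per Con-Veh liver to at most 2025 per Con-DHT liver.

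Within each group, 1 liver was the lowest in all members. Con-Veh replicate 1 was the lowest control in 7 of 7 members, and Con-DHT replicate 4 the lowest treated liver in 7 of 7. Over all genes tested these livers were the lowest of their group in 28.5% and 27.3%. Members share their library, so these counts describe a pair of mice and are no replication. In the same livers Nr1i3, which encodes CAR, was lowest of its group too, at 3512 in Con-Veh replicate 1 (5063, 5909.8 and 6215 in the others) and at 3629.6 in Con-DHT replicate 4 (4134, 6228 and 5183 in the others). Its part in the members' values was not tested. Summed markers of pericentral hepatocytes were also lowest of their group in these livers (212215 and 211333, with 228275 to 277968 in the other 6), and the part of that was not tested either. Both livers had the fewest gene reads of their group, 14240001 and 13123962, and the part of depth was not tested.

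CAR and PXR themselves did not differ between the groups by this test. Nr1i3 was 5175 ± 1211 in Con-Veh and 4794 ± 1155 in Con-DHT (SD, n = 4; log2 fold change -0.11, adjusted p = 0.80 by limma). Nr1i2 was 1762 ± 115 and 1668 ± 246 (log2 fold change -0.09, adjusted p = 0.66 by limma). Of 24 receptors and cofactors of the CAR and PXR pathway 1 was called, Nfe2l2, the regulator of the antioxidant response, which fell from 984 ± 68.1 to 745 ± 68.3 (SD, n = 4; log2 fold change -0.40, adjusted p = 0.021 by limma). The call of Nfe2l2 was lost without Con-Veh replicate 3 or 4 (0.053 and 0.065), without the trend (0.052) and with the replicate block (0.066). It was also lost with equal totals that leave out the Mup genes (-0.30, adjusted p = 0.059) and with spike-in scaling (-0.20, adjusted p = 0.93). The list had 2 calls without Con-DHT replicate 2. The list had a median change of -0.10 on the log2 scale, and its 1 call in 24 stands beside 7.21% of all genes. None of 6 electron donors of microsomal P450, Por among them, was called by limma, edgeR or DESeq2, and 1 of them had an unadjusted limma p under 0.05.

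Other CAR and PXR targets moved both ways. Of 44 listed genes 39 were in the table, and 9 of them were called (7 lower and 2 higher), beside 7.21% of all genes, and the list had a median change of -0.19 on the log2 scale. Those that fell were Cyp2c29 (-1.02), Cyp2c37 (-1.13), Cyp3a11 (-1.01), the bilirubin glucuronosyltransferase Ugt1a1 (-0.83), the sulfotransferase Sult2a1 (-5.35), the organic anion transporter Slco1a4 (-0.87) and the aldose reductase-like Akr1b7 (-2.07), all as log2 fold changes. Those that rose were the glutathione transferase Gstp1 (1.83) and the aldehyde dehydrogenase Aldh1a7 (0.85). Cyp3a11, the main PXR target, went from 26664 ± 6849.7 to 13365 ± 3748 (SD, n = 4; adjusted p = 0.028 by limma), a smaller change than that of the 4 called members. Sult2a1 had 1115, 131, 82.9 and 26.98 in Con-Veh and 41.2, 1.94, 0 and 0 in Con-DHT, so the groups overlapped and 1 liver set the control mean.

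Among 19 regulators of sex-biased liver genes and growth hormone signalling, 3 were called, beside 7.21% of all genes. The repressor Bcl6 rose from 649 ± 163 to 1255 ± 399 (SD, n = 4), with overlap between the groups (log2 change 0.93, limma adjusted p = 0.045). The prolactin receptor Prlr fell from 4905 ± 533 to 2180.3 ± 684 (-1.22, adjusted p = 0.0060) and the forkhead factor Foxa2 from 669 ± 90.5 to 462 ± 78.4 (-0.54, adjusted p = 0.033, both by limma). The list had 1 call without Con-Veh replicate 1 or 4 or without Con-DHT replicate 1 or 2. Foxa2 lost its call without any library but Con-DHT replicate 3 (adjusted p from 0.051 to 0.087), without the trend (0.071), with equal totals that leave out the Mup genes (-0.44, adjusted p = 0.063) and with spike-in scaling (-0.34, adjusted p = 0.88). Bcl6 lost it without Con-Veh replicate 1, 3 or 4 or Con-DHT replicate 1, 2 or 3 (0.057 to 0.11) and without the trend (0.093). The filter of a mean of at least 50 (0.058) and the replicate block (0.055) also cost Bcl6 its call. Prlr kept it throughout. The median of these 19 genes was -0.11 on the log2 scale.

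Neighbours within the cluster were read from the same fit. Besides the members, 4 features between Cyp2b10 and Cyp2a12 were in the table, and 2 of them were called lower, Gm29920 and Gm42375. Gm29920, a processed pseudogene between Cyp2b13 and Cyp2b9, had 14, 40, 66 and 46 reads in Con-Veh and 3, 0, 0 and 0 in Con-DHT (adjusted p = 0.0013 by limma). Gm42375, an antisense transcript that overlaps the first bases of Cyp2a4, had 17, 32, 20 and 34 reads in Con-Veh and 2, 2, 0 and 0 in Con-DHT (adjusted p = 0.0014 by limma). The overlap runs from 26307169 to 26307286. Whether counting used strand is not given in the sources used here, so it is unknown how reads in that overlap were assigned. In Con-DHT both features were at or below the floor of 3 reads in every liver.

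Of the other P450 genes of the cluster that were listed, Cyp2g1 and Cyp2f2 were in the table, and neither was called. Cyp2g1, known from the olfactory mucosa, had 72.6, 49.2, 59.9 and 34.8 in Con-Veh and 28.5, 23.2, 43.9 and 14.1 in Con-DHT (log2 fold change -1.01, adjusted p = 0.10 by limma). Cyp2f2, a marker of periportal hepatocytes, pointed the other way, with 4047, 6334, 7693 and 9784 in Con-Veh and 13051, 14956, 8633 and 12503 in Con-DHT (log2 fold change 0.86, adjusted p = 0.071 by limma). It passed by DESeq2 (0.011), with spike-in scaling (0.015), with equal totals that leave out the Mup genes (0.044), without Con-Veh replicate 4 (0.042) and without Con-DHT replicate 3 (0.046). Cyp2g1 passed without Con-DHT replicate 3 as well (0.047), and with the replicate block (0.047). The pseudogene Cyp2a21-ps, which overlaps Cyp2a22, had a log2 fold change of -0.98 (adjusted p = 0.19 by limma).

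In the 500 kb on either side of the members 29 genes were tested, and 2 of them were called, beside 7.21% of all genes. Both were higher (Lipe, the hormone-sensitive lipase, with 0.58 and Prx with 0.91 as log2 fold changes), and the median was -0.09. The lowest log2 fold change there was -0.36, above those of the 4 called members and of Cyp2b10 and Cyp2a5.

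**Figure D5:**
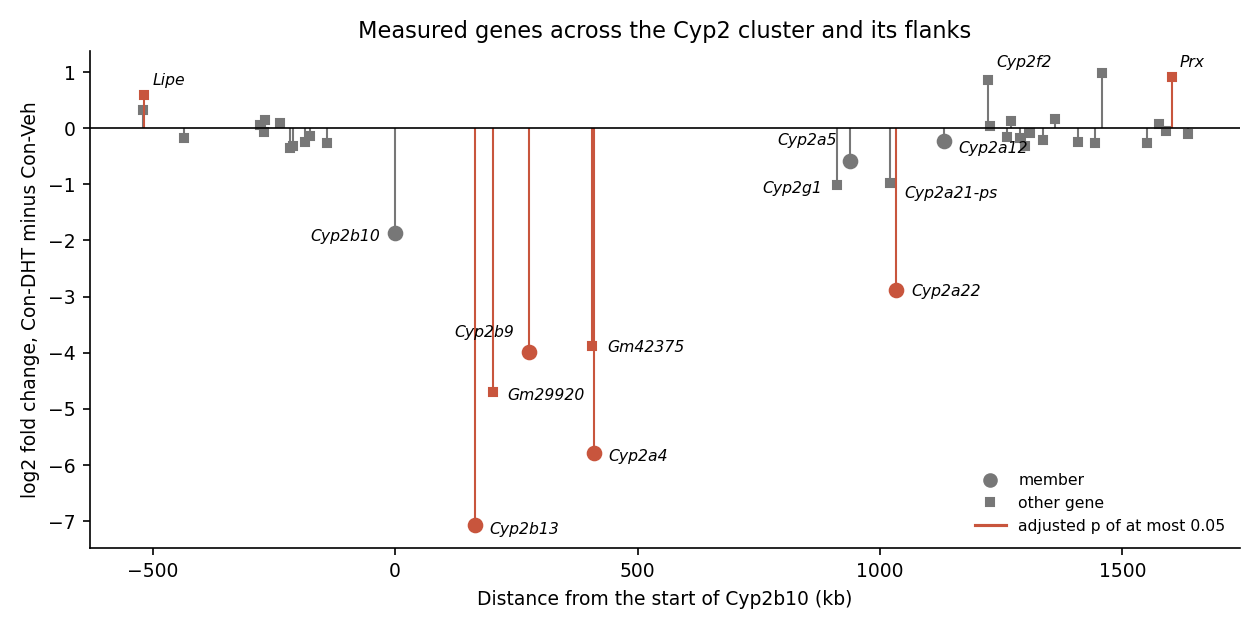
Log2 fold change of each measured gene against the distance of its lower coordinate from that of Cyp2b10, in kb. Circles are members, squares other genes, and red marks an adjusted p of at most 0.05. The deep falls lie between 164 and 1034 kb, while Cyp2a5 and Cyp2a12 sit at -0.59 and -0.23.

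The genes whose centred log2 profile over the 8 livers was nearest to that of a called member were found by the root mean square (RMS) difference, with the members themselves set aside. For Cyp2a4 they were Slc22a26 (0.78), Hao2 (0.94) and Gm29920 (0.94). For Cyp2b13 they included Slc22a26 (0.86) and Cyp3a44 (1.48), and the member Cyp2a4 was at 0.98. For Cyp2a22 they were Slc22a27 (0.83), Atp6v0d2 (0.87) and Slc22a29 (0.89), and for Cyp2b9 Slc22a27 (1.23), Hao2 (1.27) and Slc22a26 (1.35). Among the members, Cyp2a22 (1.19) and Cyp2a4 (1.31) were at a like distance from Cyp2b9. Transporters of the Slc22 family on chromosome 19 thus came up for all 4 members. Profiles in which 4 livers differ from 4 others are alike for that reason alone, so this is a description.

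The liver identity of the samples was checked with marker lists. All 9 hepatocyte markers were in the table, with sums from 1193980 to 1885610 in Con-Veh and from 1104280 to 1229700 in Con-DHT, and Trf and Serpinc1 were called lower (-0.75 and -0.38 as log2 fold changes). Without any of the livers other than Con-DHT replicate 3, the list had 1 call. None of the 13 pericentral and 13 periportal markers was called by limma, with 1 and 4 at an unadjusted p under 0.05, and 1 of each list was called by DESeq2. Kupffer cell and macrophage markers were lower too. Of 8 listed, 4 were called, all lower (Clec4f with -0.40, Cd68 with -0.61, Vsig4 with -0.57 and Cd5l with -0.86 on the log2 scale). All 8 had a lower estimate, and their sum was 6513 to 8043 in Con-Veh and 4395 to 6014 in Con-DHT. The lower calls of this list and of the hepatocyte and endothelial lists stand beside 2.61% of all genes. Of 7 endothelial markers, 2 were called lower (Stab2 with -0.55 and Lyve1 with -1.26), with sums of 3769.5 to 4387 and 2929 to 3384, and none was called without Con-Veh replicate 4 or Con-DHT replicate 1. With spike-in scaling no Kupffer marker and 1 endothelial marker was called. The part of these cells in the members' values was not tested. Stellate, cholangiocyte and adipocyte markers had no limma call, and the lymphocyte and neutrophil markers listed had no row in the table.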

How the data were processed

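Liver RNA of 8 mice, 4 in each of the Con-Veh and Con-DHT groups, was sequenced with 1 library per mouse, and groups were taken from the treatment label. Per the methods, the authors trimmed reads with Trimmomatic, aligned them with STAR, assigned reads that map once to exons by featureCounts and used DESeq2, on GRCm39 per the submitters' processing notes. What the authors deposited is a normalized signal per gene, namely read counts divided by 1 size factor per library. Dividing by the worth of 1 read gave whole reads (within 0.01 read) for 100% of the values, and the count tests used these reads as alternatives. The whole-series table has 14371 features, of which 54 are spike-ins, and no feature has under 81 reads in all. Depth was 13123962 to 17815944 gene reads per library, and p-values cover the spread between mice.

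Main comparisons used log2(value + 1) and limma 3.58.1 with an intensity trend in R 4.3.3, for genes whose mean value reached 10, Benjamini-Hochberg adjustment and a threshold of 0.05. Symbols, positions and exon lengths came from GENCODE M21 (GRCm38) and upstream sequences from RefSeq (GRCm38.p6), aligned with Biopython 1.88. Alternatives were pseudocounts of 0.1 and 5, a filter of 50 or none, 4 other scalings, limma without the trend or with array weights, edgeR 4.0.16, DESeq2 1.42.0, the replicate number as a block and leaving out each library. The code was tested on simulated counts. Named genes are the members, the other listed P450 genes of the cluster, called genes of the other lists, Nr1i3 and Nr1i2, and the 3 genes nearest in profile to each called member. Gm42375, Gm29920, Cyp2a21-ps, Lipe, Prx and Por were named after their values were seen. Some items that these rules name are not reported here. The members and lists were chosen with earlier results of these data known. Libraries of a group differed far beyond sampling noise (chi-square per degree of freedom of 19.5 or more), so each counted once.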

Additional observations from a re-analysis of the deposited data

How the results depend on the processing

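All 7 members kept a lower estimate in Con-DHT under every alternative run, except Cyp2a5, whose log2 change ran from -1.03 to 0.16 with 1 library left out and was above 0 without Con-DHT replicate 4. Cyp2a4 and Cyp2b13 kept their calls throughout. The count of called members (4) was 2 without the intensity trend and 2 to 4 with 1 library left out, where fewer samples enter the fit. The 1032 calls over all genes became 648 with a mean of at least 50, 637 with spike-in scaling, 1569 by DESeq2 and 633 to 905 with 1 library left out. Spike-in scaling moved the median log2 fold change of all genes from -0.0081 to 0.19. In that fit nearly all members had the same SE, so its p-values are not comparable with the others, and Cyp2b10 was called there (-1.67). The cause of the other shifts was not tested.

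Counts over the lists moved as follows. With spike-in scaling 5 CAR and PXR targets (9 in the main analysis), 0 Kupffer cell, 1 endothelial, 0 hepatocyte, 1 stellate and 1 periportal marker and 1 other P450 gene of the cluster were called. By DESeq2 the calls were 5 hepatocyte, 1 pericentral and 1 periportal marker, 2 receptors and cofactors and 1 other P450 gene of the cluster. Equal totals that leave out the Mup genes gave 1 hepatocyte and 1 periportal marker and 1 other P450 gene, and quantile normalization 1 hepatocyte marker. Without the trend there were 0 receptors and cofactors, 1 sex-bias regulator and 1 endothelial marker, and by edgeR 1 endothelial marker. With 1 library left out the calls ran from 0 to 2 for receptors and cofactors, for endothelial markers and for other P450 genes of the cluster, from 0 to 1 for pericentral and for periportal markers, from 1 to 2 for hepatocyte markers, from 1 to 3 for sex-bias regulators, from 3 to 6 for Kupffer cell markers and from 6 to 9 for CAR and PXR targets.

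Replicate numbers name different mice, and same-numbered libraries did not deviate together (correlations from -0.19 to -0.0060), so they do not pair. With the replicate block 4 members and 700 genes were called, with 0 receptors and cofactors, 0 hepatocyte markers and 1 other P450 gene of the cluster. The within-library differences ran, with 1 library left out, from -5.48 to -4.89 for Cyp2a4 and Cyp2a5, 2.2 to 3.19 for Cyp2a12 and Cyp2a22, -2.85 to -1.56 for Cyp2b9 and Cyp2b10, 2.67 to 3.63 for Cyp2b9 and Cyp2b13 and 4.37 to 5.79 for Cyp2b10 and Cyp2b13. Depth limits Cyp2b13 and Cyp2b10 in Con-DHT replicate 4, where both rest on 5 reads.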
